A study of Arabidopsis thaliana with 8 samples.

Results

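The 6 genes described here were grouped as genes of organelle expression and upkeep. They are AT1G08610, AT2G17670 and EMB3131 (AT4G20740), taken as pentatricopeptide repeat (PPR) genes, the AAA ATPase gene AT2G18330, PRIN2 (AT1G10522) and AT2G39795. They were chosen by their locus in the authors' deposited tables and selected on measured values. Those values were a lower signal with 24-epibrassinolide (EBR) and, in part, a turn of that ratio after heat. The 6 are part of 692 genes that could be named, on an array of 22746 probe sets. All ratios of EBR to control below are therefore descriptions and carry no test.

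Arabidopsis seedlings of the Columbia ecotype, with no mutation named in the labels, were grown for 21 days. The EBR arm had 1 µM of this synthetic brassinosteroid, a growth-promoting plant steroid, in the medium, and the control arm had 0.01% ethanol. Tissue above the medium was taken unstressed (0 h), after 1 h or 3 h at 43 °C, and after 3 h at 43 °C followed by 6 h of recovery at 22 °C. The 8 groups, EBR and control at 4 stages, have 1 deposited sample apiece, which summarises 3 arrays of separate biological replicates. Each treatment pooled 30 or more seedlings. Of 4 shoot and 4 root marker genes none could be named, so the tissue label could not be checked.

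Plastids and mitochondria keep small genomes of their own, and nuclear genes supply most of the proteins that read them. PPR proteins bind organelle transcripts and take part in their editing, splicing, stability or translation. PRIN2 is a plastid protein needed for full activity of the plastid-encoded RNA polymerase, and it takes part in redox-linked signals between plastid and nucleus. AAA ATPases use ATP to remodel or unfold other proteins. The deposited annotation places only PRIN2 in the chloroplast and only AT2G39795 in the mitochondrion, where it is assigned to the matrix. It gives ATPase activity for AT2G18330 and no more than the term "binding" for the PPR genes, so the organelle of these other 4 genes is not given by the files. EMB3131 is named after its embryo-defective mutant.

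Before and during heat every one of the 6 genes had a lower signal in EBR shoots than in control shoots, and at recovery 4 of them had a higher one. The log2 ratio of EBR to control had a median over the 6 genes of -0.64 at 0 h, -0.58 after 1 h, -0.53 after 3 h and 0.36 at recovery. Over all 22746 probe sets these medians were -0.04, -0.01, -0.04 and -0.03. The 3 PPR genes and AT2G18330 were the ones above control at recovery, while PRIN2 and AT2G39795 were still below it. In such bulk tissue, fewer cells of a type and less RNA per cell cannot be told apart.

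Among the PPR genes, AT1G08610 was furthest below control before recovery, with log2 ratios of -0.75 at 0 h, -0.79 after 1 h and -0.65 after 3 h, and 0.27 at recovery. AT2G17670 had -0.50, -0.35 and -0.47 at the stages before recovery, in order, and 0.60 at recovery. EMB3131 had only -0.15, -0.22 and -0.12, and 0.74 at recovery, the highest recovery ratio of the 6 genes. In the value table EMB3131 was thus the highest of the PPR genes at each stage and AT1G08610 the lowest, while in the authors' deposited table AT2G17670 was the lowest after 1 h. At 0 h 25.4% of all probe sets lay at or below the ratio of EMB3131, so its shortfall was common on this array. For AT1G08610 that share was 0.479% and for AT2G17670 2.15%.

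The AAA ATPase gene AT2G18330 lay at -0.53, -0.65 and -0.56 before recovery and at 0.45 at recovery. Its ratios at the first 3 stages differed by an SD of 0.06 (n = 3 stages), so the distance between the arms was nearly the same with and without heat in this source. PRIN2 had -0.95, -0.85 and -1.23, and -0.55 at recovery. It was the lowest of the 6 genes at 1 h, at 3 h and at recovery, and 0.0615% of all probe sets lay at or below it after 3 h. AT2G39795 lay at -1.02 at 0 h, but at -0.51 after 1 h, -0.50 after 3 h and -0.33 at recovery. In the value table it was the lowest of the 6 genes at 0 h, but in the authors' deposited table its ratio after 3 h, -1.13, was close to that at 0 h, -1.09.

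The control columns of the value table allow a rough reading of the spread between the 3 control arrays (see the processing summary). Pooled over the stages it gave SDs of 0.20 to 0.25 on the log2 scale for the 6 genes. The standard error of a ratio was then 0.16 to 0.20, if EBR arrays varied like control arrays. EMB3131 before recovery lay within about 1 such error of 0 at 0 h and 3 h, and the other 5 genes lay further from 0 than their error at every stage. This error uses the pooled SD at every stage. For AT1G08610 the control SD at recovery alone was 0.31, above its pooled 0.20, beside a ratio of 0.27. For PRIN2 the control SD was 0.42 after 3 h but 0.07 at recovery, so its lowest ratio is also its least precise. For AT2G39795 the control SD was 0.35 at 0 h, where its ratio was lowest.

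**Figure D1:**
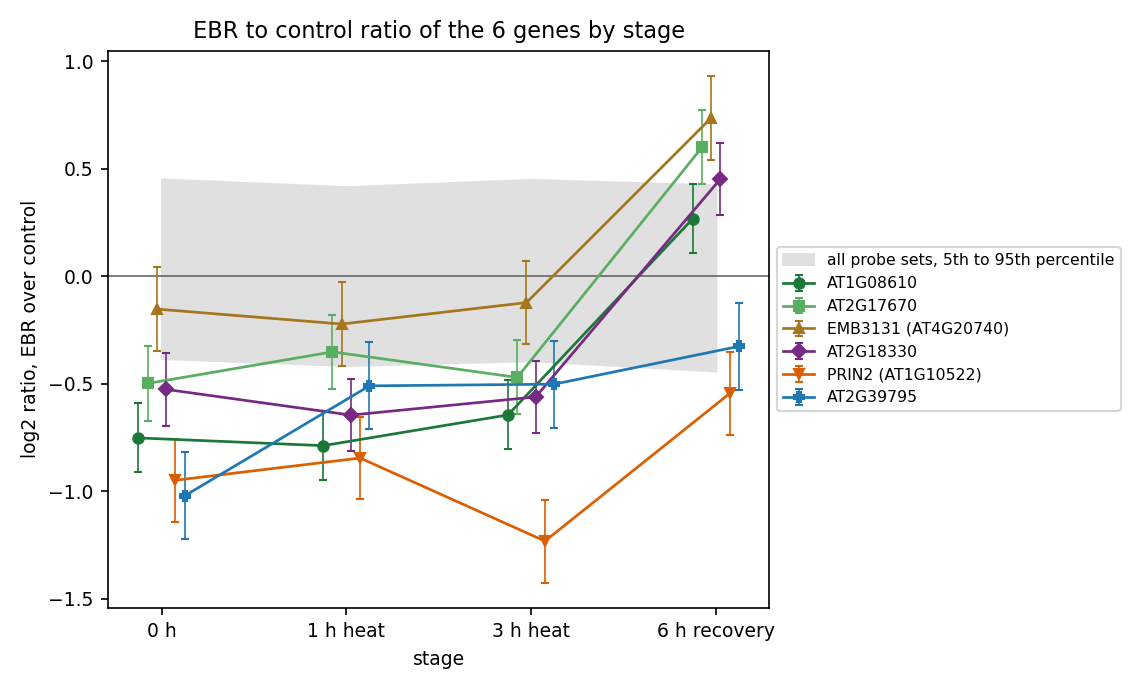
The log2 ratio of EBR to control (y axis) at the 4 stages (x axis) for the 6 genes, with bars of 1 approximate standard error and a grey band from the 5th to the 95th percentile of all probe sets. AT1G08610, AT2G17670, EMB3131 and AT2G18330 cross the line of equal signal between 3 h of heat and recovery, and PRIN2 and AT2G39795 do not.

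A ratio of at least 2-fold below control was reached by few of these genes. At 0 h 1 of 6 was that low, AT2G39795, where 0.123% of all probe sets were. After 1 h none of 6 was, against 0.123% of all probe sets, and after 3 h 1 of 6 was, PRIN2, against 0.154%. At recovery none of 6 was, against 0.365%. At least 1.5-fold below control were AT1G08610, PRIN2 and AT2G39795 at 0 h, beside 1.16% of all probe sets. AT1G08610, AT2G18330 and PRIN2 were after 1 h (1.53%), AT1G08610 and PRIN2 after 3 h (1.20%), and none at recovery (2.17%). Below control by any amount were 6 of 6 at 0 h, 1 h and 3 h, where 58.0%, 51.6% and 58.5% of all probe sets were, and 2 of 6 at recovery, where 57.5% were. Nothing is read from these counts, since the genes were chosen on the same ratios.

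The turn at recovery, taken as the recovery ratio minus the mean of the 3 earlier ratios, was larger for a group of 4 genes than for PRIN2 and AT2G39795. It was 1.04 for AT2G17670, 1.03 for AT2G18330, 1.00 for AT1G08610 and 0.90 for EMB3131, with approximate standard errors of 0.19 to 0.22. It was 0.46 for PRIN2 and 0.35 for AT2G39795, with errors of 0.22 and 0.23. These errors use the SD pooled over the stages, not that of recovery. With errors of this size the edge between EMB3131 and PRIN2 is not sharp, and after quantile normalization the turn of PRIN2 was 0.58. The group of 4 thus moved by about the same amount, although the stages before recovery had placed AT1G08610 at a mean of -0.73 and EMB3131 at -0.17. A turn of at least 1.5-fold was met by 4 of 6 genes, by 2.00% of all probe sets and by 6.94% of the 692 named genes. Below control at all 3 earlier stages and above it at recovery were the same 4 genes, against 8.56% of all probe sets and 6.36% of the named genes. Among the 249 named genes below control at the 3 earlier stages, which is the nearest like set, 17.7% were above it at recovery.

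Other values also moved with the recovery stage, and their part in the turn was not tested. The signal of the 3' over the 5' control probe sets for actin and GAPDH, a sign of RNA quality, was lower in EBR at recovery for 4 of 4 pairs, by log2 values between -0.47 and -0.08. After 1 h it was higher in EBR for 4 of 4 pairs, by 0.29 to 0.57, while at 0 h and 3 h the pairs went both ways. The pairs are repeat readings of the actin and GAPDH transcripts in the same samples, so they are not 4 separate observations. The control SD at recovery was 0.31 for AT1G08610, 0.34 for AT2G17670 and 0.30 for EMB3131, and for AT1G08610 and AT2G17670 this was the widest of the 4 stages. For AT2G18330 it was 0.21, close to its 0.18 to 0.23 at the other stages. The flower gene PI, the 1 of 3 flower markers that could be named, was lower in EBR at every stage, with log2 ratios of -0.69, -0.72, -0.67 and -0.94 in stage order, and so did not turn.

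**Figure D2:**
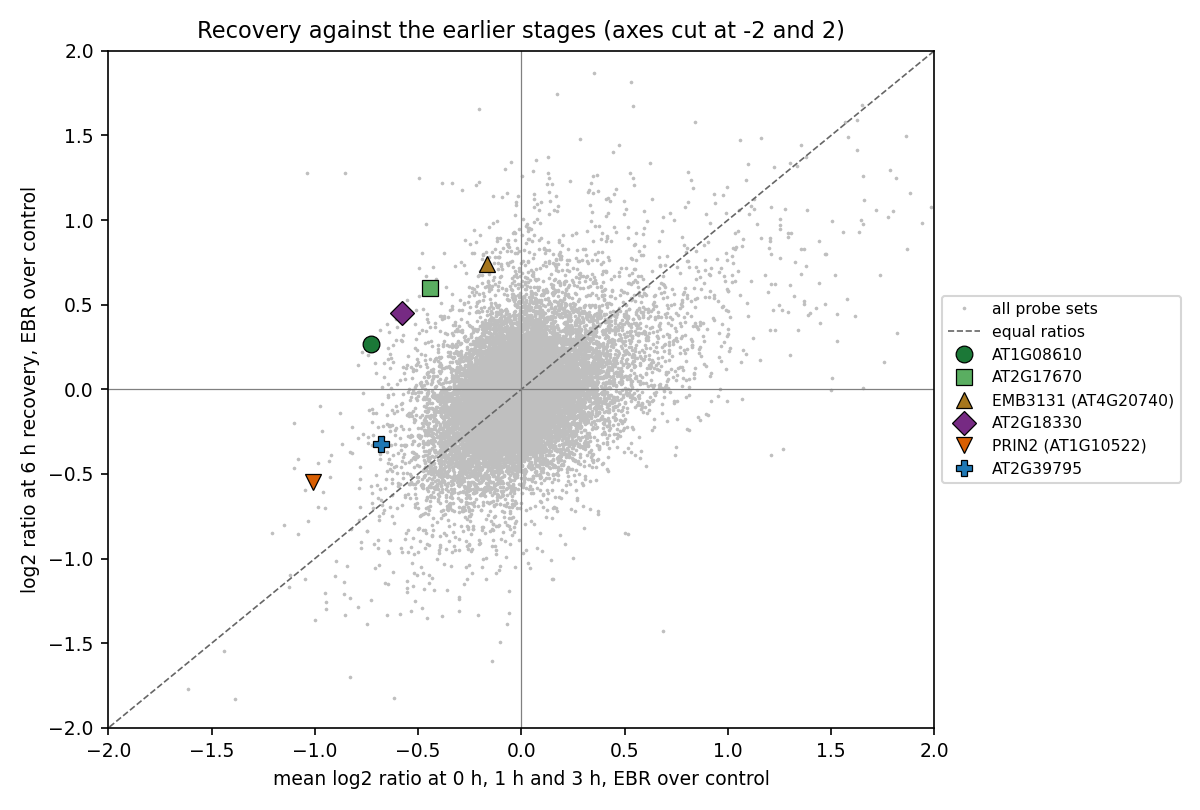
The log2 ratio of EBR to control at 6 h of recovery (y axis) against its mean at 0 h, 1 h and 3 h (x axis) for all probe sets in grey and the 6 genes in colour, with a dashed line of equal ratios. The 4 genes AT1G08610, AT2G17670, EMB3131 and AT2G18330 lie in the upper left, below control earlier and above it at recovery, and PRIN2 and AT2G39795 lie in the lower left.

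The authors' deposited tables hold a second reading of the EBR ratio at 0 h, 1 h and 3 h, from condition means of log2 signal, with no error and no recovery stage. There the log2 ratio was -1.33, -0.59 and -1.10 for AT1G08610, -0.74, -0.67 and -0.80 for AT2G17670, and -0.41, -0.44 and -0.53 for EMB3131. It was -0.87, -0.35 and -0.70 for AT2G18330, -1.15, -0.85 and -1.28 for PRIN2, and -1.09, -0.70 and -1.13 for AT2G39795. All 18 ratios of the authors' deposited table were below 0, as in the value table, but 16 of 18 lay further below. The value table minus the authors' ratio had a median of 0.23 over the 18 values, with sizes from 0.01 to 0.63, while over all 708 probe sets of that table the median was -0.07. The exceptions were AT1G08610 and AT2G18330 after 1 h. PRIN2 differed least between the sources, and for EMB3131 the authors' ratios were the lower ones at each of these stages. The array summary behind each source is not stated, so the size of the EBR effect before recovery is less certain than its direction. At recovery only the value table has ratios, so neither their size nor their direction has a second reading. The recovery ratio of AT1G08610, 0.27, was close in size to the median difference of 0.23 between the sources at the earlier stages.

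**Figure D3:**
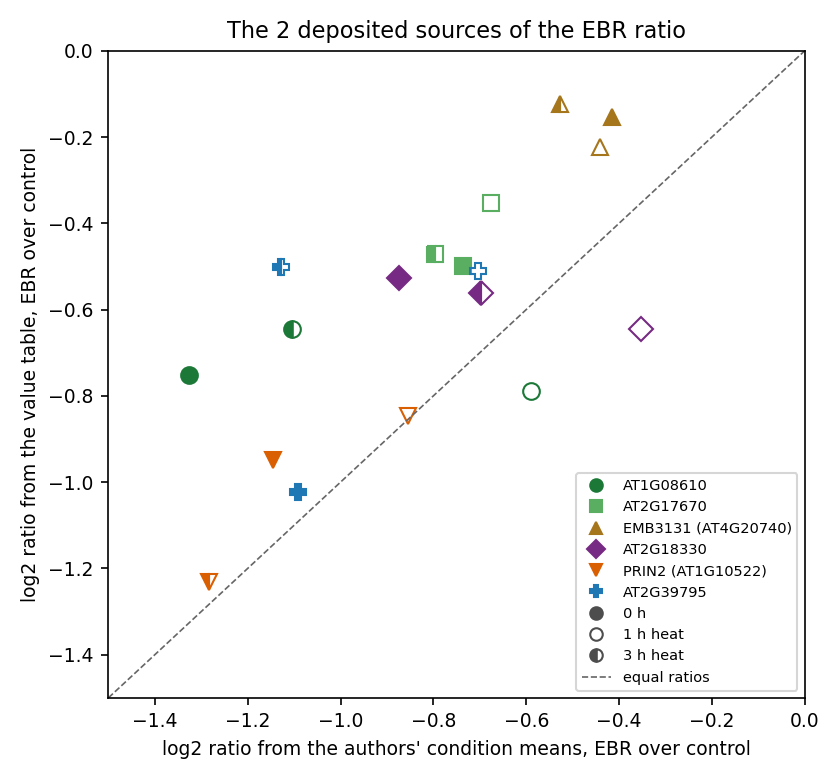
The log2 ratio of EBR to control from the value table (y axis) against that from the authors' condition means (x axis) for the 6 genes at 0 h, 1 h and 3 h, with a dashed line of equal ratios. Most points lie above the line, where the authors' ratio is the lower one, and all lie below 0 on both axes.

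For AT1G08610, PRIN2 and AT2G39795 the authors' deposited tables also list mean signal intensity, at 0 h and 3 h. AT1G08610 had a mean intensity of 40.4 in EBR shoots against 102 in control shoots at 0 h, and 14.6 against 29.6 after 3 h. PRIN2 had 256 in EBR shoots against 569 in control shoots at 0 h, and 206 against 553 after 3 h. AT2G39795 had 22.0 in EBR shoots against 47.4 in control shoots at 0 h, and 11.2 against 25.0 after 3 h. Intensities in these tables ran from 3.55 to 13400 with a median of 75.1, so PRIN2 was measured well above that median and AT2G39795 below it in each of these groups. No background level is given, so how far the lower readings were set by background was not tested. The other 3 genes are not listed in the authors' same-stage tables, and no intensity is given for them here.

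Heated shoots had a lower signal than unstressed shoots of the same arm for 5 of these genes, and for PRIN2 a signal near the unstressed one. The authors' deposited table behind these values lists 708 probe sets at least 2-fold from the unstressed control in 1 or more conditions. Its entries had passed the authors' test for treatment, so some distance from the unstressed control was a condition for being listed. In the EBR arm the log2 change after 1 h was -1.21 for AT2G17670, -1.00 for AT1G08610, -0.99 for AT2G39795, -0.89 for EMB3131 and -0.69 for AT2G18330, and 0.06 for PRIN2. In the control arm it was -1.27 for AT2G17670, -1.74 for AT1G08610, -1.38 for AT2G39795, -0.86 for EMB3131 and -1.21 for AT2G18330, and -0.23 for PRIN2. The median over the 6 genes after 1 h was -0.94 in the EBR arm and -1.24 in the control arm, against -0.28 and -0.20 over the whole table.

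After 3 h the EBR arm was at -1.55 for AT1G08610, -0.97 for AT2G39795, -0.87 for AT2G17670, -0.84 for AT2G18330, -0.71 for EMB3131 and -0.31 for PRIN2, relative to its own 0 h. The control arm was at -1.77 for AT1G08610, -0.94 for AT2G39795, -0.81 for AT2G17670, -1.02 for AT2G18330, -0.60 for EMB3131 and -0.17 for PRIN2. The medians were -0.86 in the EBR arm and -0.87 in the control arm, against -0.33 and -0.20 over the whole table. At least 2-fold lower after 1 h were 2 of 6 genes in the EBR arm, where 24.3% of the table was, and 4 of 6 in the control arm, where 20.5% was. After 3 h this held for 1 of 6 in the EBR arm (27.0% of the table) and 2 of 6 in the control arm (22.3%). AT1G08610 was the only gene in all 4 of these counts.

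From 1 h to 3 h the control arm moved by 0.46 for AT2G17670, 0.45 for AT2G39795, 0.26 for EMB3131, 0.20 for AT2G18330, 0.07 for PRIN2 and -0.03 for AT1G08610 on the log2 scale. In the EBR arm the same step was 0.34 for AT2G17670, 0.02 for AT2G39795, 0.18 for EMB3131, -0.15 for AT2G18330, -0.36 for PRIN2 and -0.55 for AT1G08610. The control arm was thus higher at 3 h than at 1 h for 5 genes and the EBR arm for 3. The heat change in EBR minus that in control was 0.74 for AT1G08610, 0.52 for AT2G18330, 0.39 for AT2G39795 and 0.29 for PRIN2 after 1 h, and 0.06 for AT2G17670 and -0.03 for EMB3131. After 3 h it lay between -0.14 and 0.22 for all 6 genes. These differences restate how the authors' EBR ratio moved between stages, so they are not a second line of evidence, and no error is given for them. The value table went the other way from 0 h to 1 h for the genes with the largest differences. Its ratio was -0.75 and then -0.79 for AT1G08610, and -0.53 and then -0.65 for AT2G18330. It rose for AT2G39795, from -1.02 to -0.51, and for PRIN2, from -0.95 to -0.85.

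The 6 condition means shared their highest group across the genes, and the order of the others varied. Unstressed control shoots were highest for all 6 genes, and the lowest level was in heated EBR shoots, after 1 h for AT2G17670, EMB3131 and AT2G39795 and after 3 h for AT1G08610, AT2G18330 and PRIN2. The distance from highest to lowest was 2.87 for AT1G08610, 2.08 for AT2G39795, 1.95 for AT2G17670, 1.71 for AT2G18330, 1.45 for PRIN2 and 1.31 for EMB3131 on the log2 scale. For the 3 PPR genes and AT2G18330, unstressed EBR shoots came next to the top, above both heated control groups. For PRIN2 the 3 control groups all stood above the 3 EBR groups. The means carry no error, so neighbours in these orders cannot be said to differ. The value table has no link between stages, so the level at recovery relative to 0 h is not known in either arm.

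**Figure D4:**
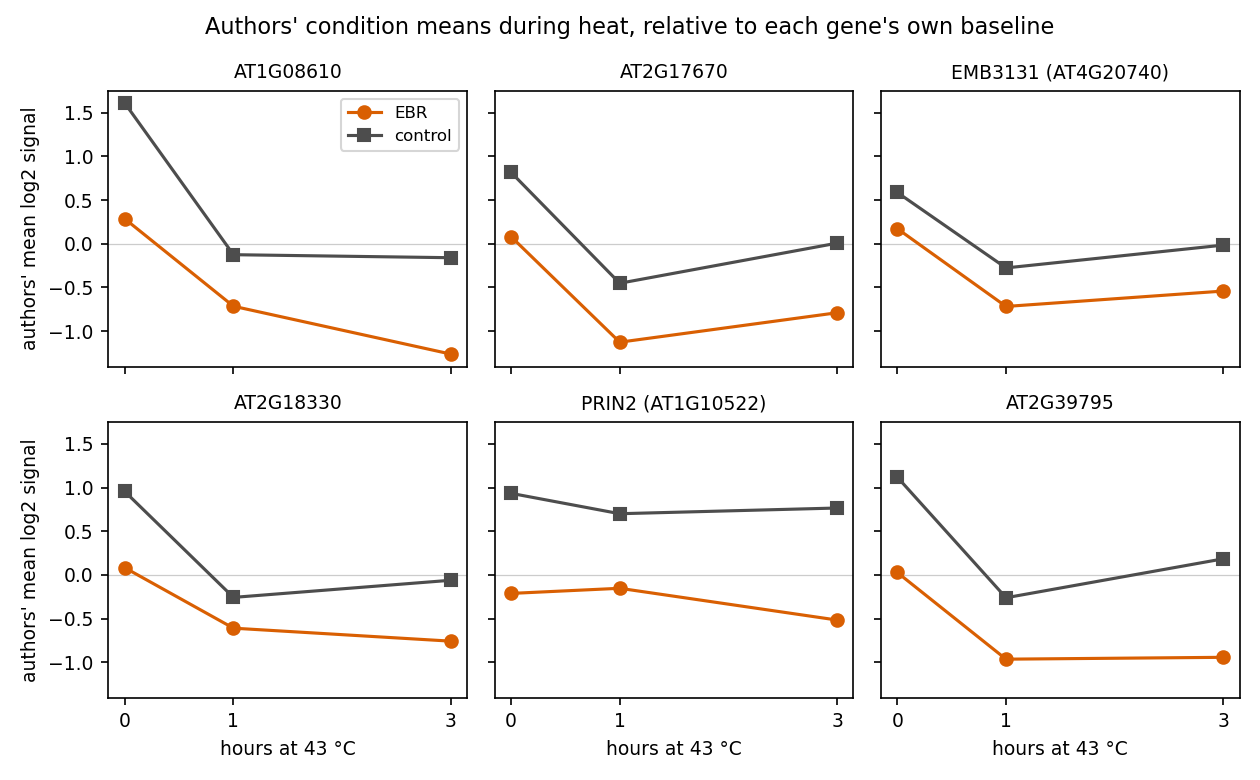
The authors' condition means of log2 signal (y axis, relative to each gene's own baseline) after 0, 1 and 3 hours at 43 °C (x axis), with EBR and control shoots as separate lines, 1 panel per gene. EBR lies below control at all 3 times in every panel, and both lines drop within the first hour except for PRIN2.

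Related genes were taken by words in their reference names from the 692 named genes. The authors had listed all of these by a test for treatment and a fold of at least 2. For some, as for AT2G17670, EMB3131 and AT2G18330, the listing was only against the unstressed control. The direction of the related genes is therefore not independent evidence. Of 27 plastid transcription genes in the reference, 7 were named including PRIN2. The other 6 split by kind, and 4 of them were below control at 0 h, 1 h and 3 h, as were 249 of the 692 named genes. The 4 were PTAC12, PTAC2, PTAC13 and PTAC15, which carry plastid transcriptionally active (PTAC) names. PTAC12 was nearest to PRIN2 in size, with log2 ratios of -0.66, -0.75 and -0.76, and -0.67 at recovery, a turn of only 0.05. PTAC2 had -0.40, -0.65 and -0.46, and -0.28 at recovery. PTAC15 was the 1 of these 4 that was above control at recovery, at 0.22, after -0.18, -0.37 and -0.38. SIB1 and SIB2, which encode proteins that bind a plastid sigma factor and act in defence, were above control at all 4 stages, with SIB1 between 0.93 and 1.91 and SIB2 between 0.23 and 0.96. At least 2-fold lower was none of the 6 at any stage.

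Of 264 embryo-defective genes in the reference, 14 were named including EMB3131, and the other 13 were all below control at 0 h, 1 h and 3 h, as were 249 of the 692 named genes. Their median log2 ratios were -0.44, -0.52 and -0.51 at these stages and -0.22 at recovery, and 4 of 13 were above control at recovery, against 17.7% of those 249 genes. Those 4 were emb1796 at 0.38, EMB3144 at 0.20, EMB2001 at 0.18 and EMB2788 at 0.14. The turn of emb1796 was 1.03, close to that of the 3 PPR genes described here. That of EMB2453, the 1 of 13 genes with a PPR name in the reference that could be named, was 0.22. The search for PPR names did not find the 3 PPR genes described here. Other embryo-defective genes, emb1796 among them, may therefore be PPR genes without such a name, and this was not looked up. EMB2729, which encodes a starch-branching enzyme homologue, was the lowest on average, at -0.85, -0.83 and -1.11, and at -0.43 at recovery. EMB3108 followed with -0.70, -1.01 and -0.78, and -0.37 at recovery, and EMB3012 with -0.64, -0.69 and -1.01, and -0.46 at recovery. At least 2-fold lower were 1 of 13 after 1 h and 2 of 13 after 3 h, where 0.123% and 0.154% of all probe sets were. The share of the 692 named genes this low, the nearer background, was not computed, so nothing is read from these counts. The searches by name for AAA ATPases and for organellar ribosomal proteins matched none of the 692 named genes. They missed AT2G18330 as well, so they cannot show whether related genes of these kinds were among the named genes.

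The mitochondrial chaperone gene mtHsc70-1 shared the turn, at 1.08, and was the gene with the profile closest to that of AT2G17670, at a distance of 0.27. The distance is Euclidean over the 4 log2 ratios, and between the 6 genes themselves it ran from 0.34 to 1.97. The other hit of the mitochondrial chaperone and import list was BON1, a copine gene that shares an alternative symbol with a chaperonin, and it was above control at all stages. EMB2001 lay nearest to AT1G08610 at 0.21, AT5G61350 to EMB3131 at 0.31 and AT1G18850 to AT2G18330 at 0.17. AT3G46370 lay nearest to PRIN2 at 0.19, and ARR15, a cytokinin response regulator gene, to AT2G39795 at 0.21. Nearest to the mean profile of the 6 genes were AT2G40360, TK1b, EMB2001, NOXY2 and AT1G48460, at distances of 0.12 to 0.22. These are likenesses over 4 stages of the same samples and say nothing of shared control.

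Among genes that the deposited annotation places in the mitochondrion, a list chosen after the values were seen, 18 were named beside AT2G39795. Of these 8 were below control at 0 h, 1 h and 3 h, as were 249 of the 692 named genes. At recovery 4 of those 8 were above it, as were 17.7% of the 249. These 4 were mtHsc70-1 at 0.53, the prohibitin gene PHB4 at 0.26, AT4G27620 at 0.12 and the RNA-binding protein gene GR-RBP3 at 0.09. PHB4 had -0.54, -0.50 and -0.82 earlier, and GR-RBP3 -0.87, -0.66 and -0.58. AT2G39795 was lower than all 18 at 0 h and did not cross, like OSB3, which encodes an organellar single-stranded DNA-binding protein and stayed between -0.43 and -0.39.

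**Figure D5:**
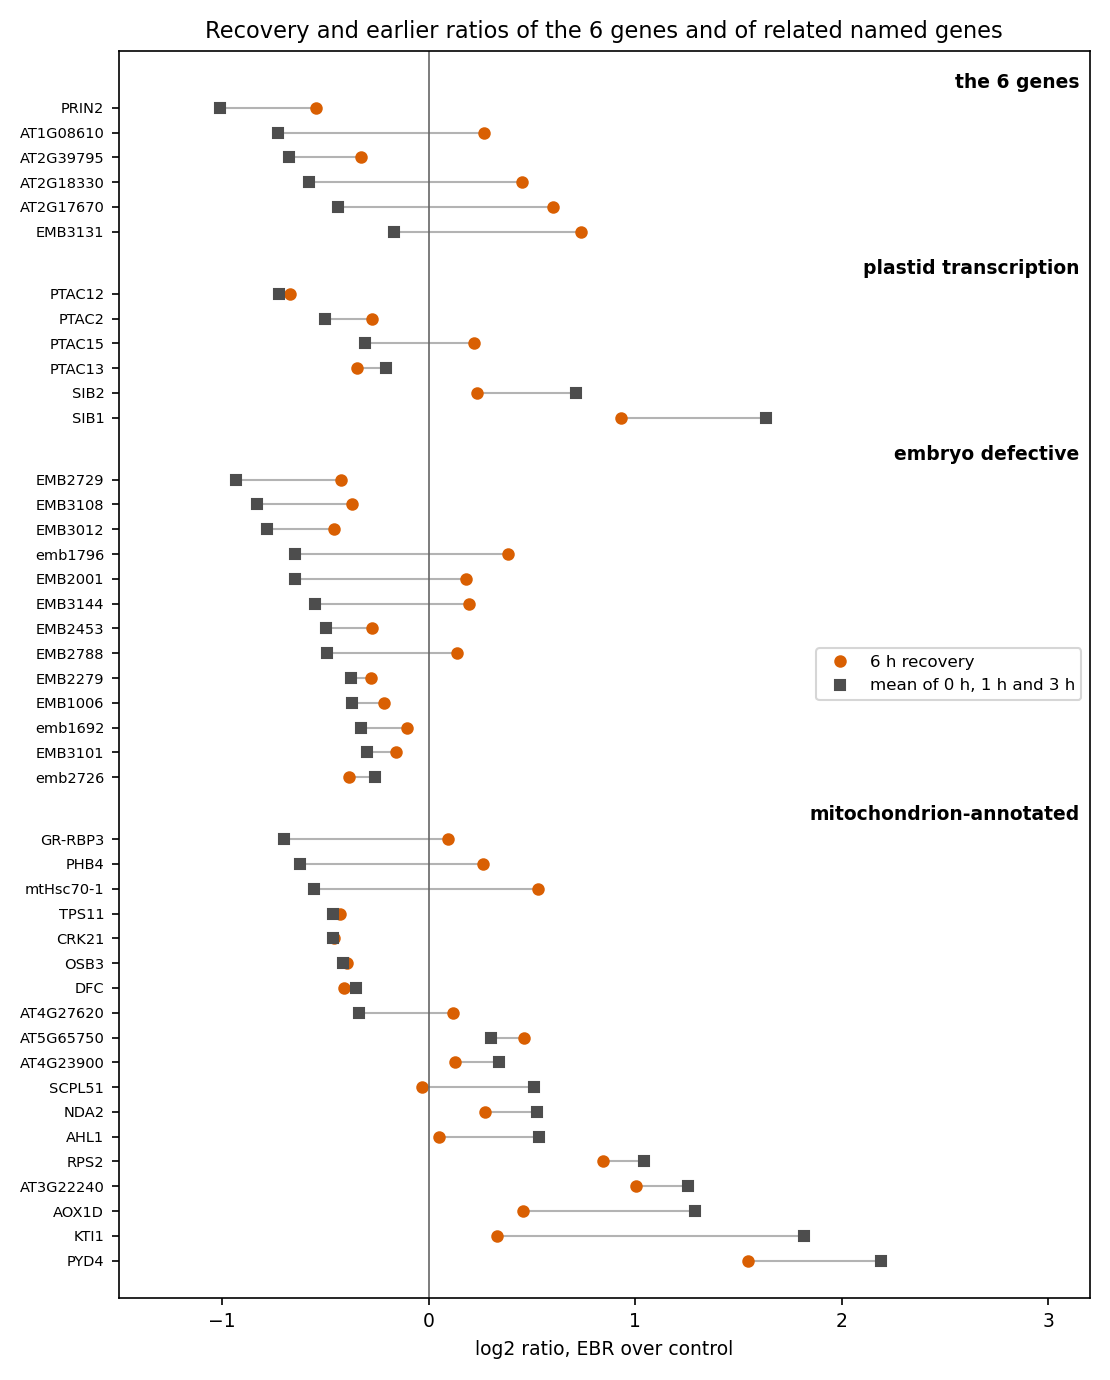
The log2 ratio of EBR to control (x axis) at 6 h of recovery and as the mean of 0 h, 1 h and 3 h for the 6 genes and for named genes of plastid transcription, of embryo-defective mutants and of mitochondrial annotation (rows). Grey lines join both values of a gene, and the longest moves across 0 among those below control are of AT2G17670, AT2G18330, AT1G08610, EMB3131, mtHsc70-1 and emb1796.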

How the data were processed

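The arrays were Affymetrix ATH1, per the series' design text. MAS5 and GCRMA appear in the submitters' processing notes, with no role stated. The authors' deposited value table holds a linear ratio per probe set and sample, with no control value above 1, and was taken to be scaled to control shoots of that stage, an inference from the values. Ratios were EBR over control columns, on the log2 scale; this pair was listed the other way round in the plan, and the EBR column alone became an alternative added after the data were seen. The control column was read as geometric over arithmetic mean of 3 arrays, which gives an approximate SD. The calculation was run on simulated arrays built in that form, which cannot show that the deposited column is this quantity. Authors' mean intensity, log2 condition means and fold values come from tables that, per the file headers, list probe sets with a corrected analysis of variance p for treatment of at most 0.05 and a fold of at least 2. 11 array control probe sets were left out, and 692 of 733 listed probe sets had 1 locus, all matched in the TAIR10.1 RefSeq table. The named genes were the 6 members, up to 4 genes per related list and the nearest profiles, and further list genes were named after their values were seen. The members and lists were chosen with earlier results of these data known. Alternatives were median centring, quantile normalization, the authors' means or intensities, 1.5-fold, and leaving out stages or members. No test was run, because each group has 1 sample and the members were chosen on these ratios. The number of arrays limits the precision. Promoter and protein sequences were not analysed here. Values were computed with Python 3.11.15, pandas 2.3.3 and NumPy 2.4.6.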

Additional observations from a re-analysis of the deposited data

Results flagged for a closer look

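AT1G08610, AT2G17670, EMB3131 and AT2G18330 had EBR to control ratios below 0 at 0 h, 1 h and 3 h and above 0 at recovery, so that the deposited samples of recovery and of the earlier stages lay on opposite sides. Their log2 ratios at recovery were 0.27, 0.60, 0.74 and 0.45 in that order. PRIN2 was the 1 gene whose first hour of heat went opposite ways in the arms, at 0.0588 in the EBR arm and -0.23 in the control arm on the log2 scale. None of these differences was tested.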

How the results depend on the processing

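No result changed sign under any alternative that was run. For the recovery ratio and the turn, those alternatives only rescaled the value table or left out members or earlier stages. No second source covers recovery, so they could hardly have changed a sign there. The difference between the arms in heat change was not among the results rerun, and for AT1G08610 and AT2G18330 after 1 h its sign differs between the sources. With the authors' log2 condition means in place of the value table, the median log2 ratio of the 6 genes was -0.98 at 0 h and -0.95 after 3 h. At each of these stages 3 genes were then at least 2-fold lower, and the share of that table this low was not computed. The count at 0 h was 0 with each stage centred on its median and 2 after quantile normalization, since AT2G39795 and PRIN2 lie near the 2-fold line. At 1.5-fold the counts of lower genes were 3, 3 and 2 at 0 h, 1 h and 3 h. At 1.5-fold, 5 genes were lower in heated than in unstressed shoots in each arm, both after 1 h and after 3 h. The share of the authors' deposited table past 1.5-fold was not computed, so nothing is read from this count. Among ratios of single genes, 17 of the recomputed values moved by more than the approximate standard error of the ratio, each with the authors' means or intensities. With the authors' log2 condition means 13 moved and 5 did not. With the authors' mean intensities 4 moved and 8 did not, heat changes included. Most single-gene ratios thus depended in size on the source. The 4 genes that turned numbered 4 under centring, quantile normalization and the EBR column as deposited, and the count of turns of at least 1.5-fold was 4 without any 1 of the 3 earlier stages. The causes of these shifts were not tested. No paired analysis was possible because each group has 1 deposited sample.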

Other observations

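Not all mitochondrial genes were on the low side. Of the 18 further named genes with mitochondrial annotation, 9 were above control at all 4 stages. The 692 named genes had median log2 ratios of 0.33, 0.35, 0.32 and 0.11 in stage order, so lying above control was common among them. Their share above control at all 4 stages was not computed, so the count is not read as a trait of mitochondrial genes. PYD4 was the furthest above, at 1.81, 2.18 and 2.57 at 0 h, 1 h and 3 h and 1.54 at recovery. KTI1, a trypsin inhibitor gene, had 1.60, 1.83 and 2.02, and 0.33 at recovery, and AT3G22240 had 1.08, 1.58 and 1.09, and 1.01 at recovery. AOX1D, an alternative oxidase gene of the respiratory chain, had log2 ratios of 1.05, 1.36 and 1.46 at 0 h, 1 h and 3 h and of 0.45 at recovery. NDA2, an alternative NADH dehydrogenase gene, had 0.59, 0.40 and 0.59, and 0.27 at recovery. After 3 h of heat AOX1D was higher than at 0 h by a log2 of 1.29 in the EBR arm and 0.16 in the control arm in the authors' deposited table. These genes were picked out after their values were seen and carry no test.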
